A study of Mus musculus with 19 samples.

Results

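Lymphoid-primed multipotent progenitors (LMPP) of the mouse fetal liver were compared with haematopoietic stem cells (HSC) of the same organ, across all genes. The comparison used 9 of the 19 samples of the study, chosen by tissue and cell type in the labels: 2 fetal HSC and 3 fetal LMPP RNA-seq libraries, and 2 ATAC-seq libraries of each, which were deposited as 1 list of open regions per cell type. All mice were C57BL/6 with no engineered allele or treatment in the labels. Fetal livers were taken at E14.5. Both fetal gates took 7AAD- cells that lacked B220, CD3, Gr1 and Ter119 and carried cKit and Sca1. Within that fraction the HSC were CD150+, CD48- and Flt3-, and the LMPP were CD150-, CD48+ and Flt3+. The other 10 samples were HSC and LMPP of adult bone marrow at 12 weeks, sorted with the same markers and without CD11b. They enter here where the same LMPP to HSC difference or the open regions were measured at the later age. The adult RNA libraries were also fitted together with the fetal ones. They thus share the estimate of spread behind the fetal p-values. The labels call the libraries biological replicates but do not say whether a library is 1 fetus, 1 litter or a pool, so the p-values measure the spread between these libraries.

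The fetal liver is the main site of blood formation in mid-gestation, and its HSC divide and expand in number, whereas most HSC of adult marrow are quiescent. HSC give rise to every blood lineage. LMPP lie downstream of them, keep lymphoid, granulocyte and macrophage potential, and have lost most of the potential to make megakaryocytes and erythrocytes. Their surface receptor Flt3 and their early lymphoid transcripts gave them their name.

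The deposited exon counts summed to 23710394 and 37522438 in the fetal HSC libraries and to 64783926, 29371282 and 24915356 in the fetal LMPP libraries. Levels are given as CPM, a gene's counts per 1000000 counts of the library, scaled between libraries by the trimmed mean of M-values, and in that order of libraries. The first principal component of the 5 fetal libraries held 68.2% of the variance and separated the cell types. The second, with 16%, set LMPP library 1, the most deeply sequenced, at -75.8 and the other LMPP libraries at 47 and 26.1. Pearson correlations of log2 levels were 0.977 between the HSC libraries and 0.957 to 0.971 among the LMPP libraries.

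Of 14720 genes tested, 1208 (8.21%) were higher and 1450 (9.85%) were lower in fetal LMPP than in fetal HSC at an adjusted p under 0.05 in edgeR's quasi-likelihood test. Adjusted p-values are Benjamini-Hochberg values over all 14720 genes, and differences are log2 LMPP minus HSC with their standard errors. A change of at least 2-fold was reached by 504 (3.42%) of the higher and 1258 (8.55%) of the lower genes. The larger changes were thus mostly falls, while the median difference over all genes was -0.08. The counts depended on the libraries used. With HSC library 1 or 2 left out, fewer genes were called in each direction. In those fits the lone remaining HSC library is assumed to vary like the other groups. The counts were 787 higher and 1219 lower genes without LMPP library 1, and 672 and 884 without LMPP library 2. Leaving out the 3 libraries of the study that stood apart on principal components (LMPP library 1 and adult HSC and LMPP libraries 3), an alternative added after the data were seen, gave 2579 and 2970. A block for replicate number in the adult libraries only, also added later, gave 2367 and 2302. All groups share the estimate of spread, and the cause of these changes in counts was not tested. Of 112 called genes named in the paragraphs that follow, 40 lost their call when 1 fetal library was left out: 26 without HSC library 1, 36 without HSC library 2, and 4, 15 and 13 without LMPP libraries 1, 2 and 3. They are named beside their values.

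**Figure D1:**
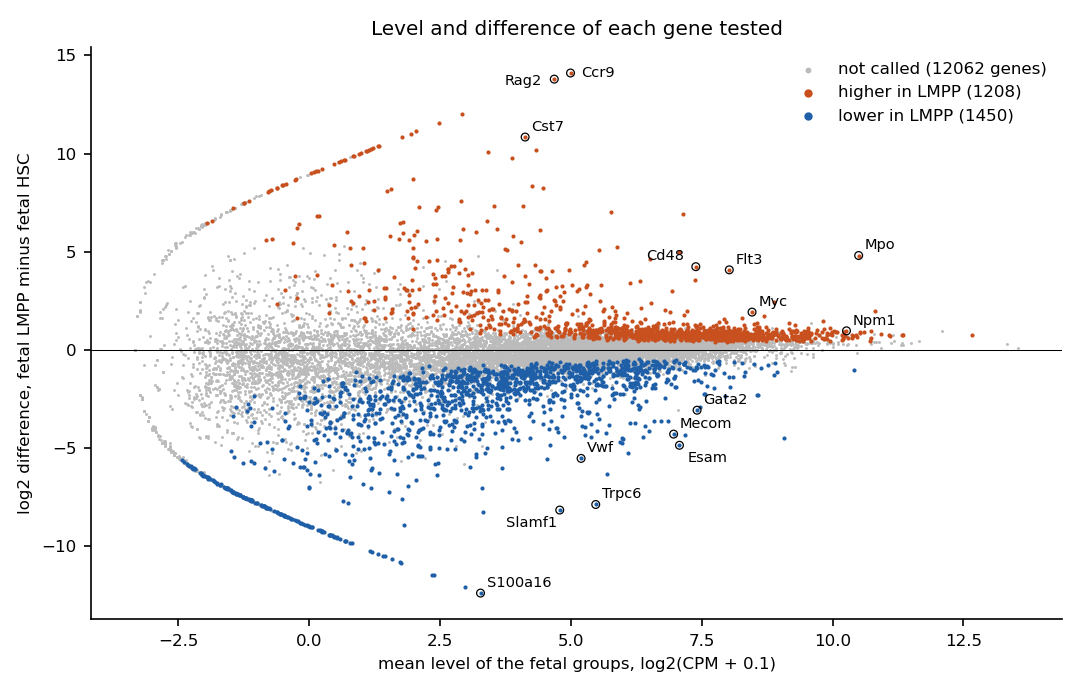
Mean level of the fetal groups, log2(CPM + 0.1), against the log2 difference between fetal LMPP and fetal HSC, 1 point per gene tested. The 1208 higher genes are orange and the 1450 lower genes blue; the curved outer edges are genes at 0 in every library of 1 group, whose fitted difference depends on the prior count.

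The transcripts behind the sort followed the labels. Because the proteins were used to choose the cells, these values check the gates and are no finding. Slamf1, which encodes CD150, was at 56.8 and 52.7 CPM in the HSC libraries and at 0, 0 and 0.722 CPM in the LMPP libraries, a difference of -8.15 ± 1.22 (edgeR adjusted p = 0.0023). Cd48 was at 22.6 and 11 CPM in HSC and 398, 271 and 284 CPM in LMPP. Flt3, the receptor tyrosine kinase of the LMPP gate, was at 28.2 and 29.8 CPM in HSC and 469, 496 and 512 CPM in LMPP. No library of 1 group reached the other for these 3 genes. Over all genes tested, the libraries of the 2 groups did not overlap for 27.6% of genes that were higher and 33.3% that were lower in LMPP. Kit and Ly6a, which encode the cKit and Sca1 shared by both gates, were at means of 774 ± 49.6 and 30.5 ± 0.683 CPM in HSC (SD, n = 2) and 427 ± 130 and 19.3 ± 4.88 CPM in LMPP (SD, n = 3). Neither passed the test, with edgeR adjusted p of 0.41 and 0.2 (0.026 and 0.034 with the adult block). Cd3e and Ly6g, markers excluded by the gates, were listed at 0 in all 5 fetal libraries.

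The Cd48 start site was open in the fetal LMPP list and not in the fetal HSC list. Its region was also in both adult lists, that of the adult HSC sorted as CD48- among them. The 250 bases before the start are shown because the sort, the RNA and the fetal lists point the same way for this gene (RefSeq, GRCm38.p6, chr1:171681742-171681991, + strand). Capitals here and in the sequences that follow mark any match, on either strand, of 9 motifs searched: AGATAA of GATA factors, GGAAGT of ETS factors, TGTGGT of RUNX factors, CACGTG of Myc and Max, CAGGTG of E proteins, TGANTCA of AP-1, CCACACCC of KLF factors, GATTGG of NF-Y and TTTGGCGC of E2F.
Cd48: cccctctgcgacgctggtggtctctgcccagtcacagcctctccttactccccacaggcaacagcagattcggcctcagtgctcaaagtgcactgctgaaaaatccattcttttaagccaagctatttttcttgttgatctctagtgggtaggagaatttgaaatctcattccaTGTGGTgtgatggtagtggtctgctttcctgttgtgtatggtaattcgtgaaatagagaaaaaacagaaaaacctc
It held 1 match, TGTGGT, from 76 to 71 bases before the start. That motif was found in 11% of the 11227 promoters of tested genes that matched the RefSeq table.

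Of 20 transcription regulators of stem cells tested, 13 fell and 0 rose, with a median difference of -1.56; 0 were higher at an unadjusted p under 0.05 in edgeR and 0 by DESeq2. Mecom, a zinc finger regulator required by HSC, was at 218 and 256 CPM in the HSC libraries and 16.8, 6.5 and 13.1 CPM in the LMPP libraries, a fall of 4.28 ± 0.53 (edgeR adjusted p = 0.00088). Gata2, a zinc finger factor of stem cells and early myeloid progenitors, was at 309 and 299 CPM against 37.7, 26.4 and 44.9 CPM. It fell by 3.06 ± 0.32 (edgeR adjusted p = 0.0004), with every LMPP library below both HSC libraries. Hoxb5, a homeobox gene used to mark long-term HSC, was at 5.66 and 8.63 CPM in HSC and at 0, 0 and 0.212 CPM in LMPP. Nkx2-3, a homeobox gene, was at 75 and 80.9 CPM in HSC and 10.2, 2.55 and 4.42 CPM in LMPP. Meis1, a homeodomain partner of Hox proteins, fell by 1.81 ± 0.27 (edgeR adjusted p = 0.0021). Hlf, a leucine zipper factor of stem cells, was at 149 and 222 CPM against 47.6, 47.5 and 72.2 CPM. Its fall of 1.74 ± 0.48 (edgeR adjusted p = 0.032) lost its call without either HSC library (adjusted p = 0.073 and 0.23) and without LMPP library 1 or 2 (0.09 and 0.098).

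Other stem cell regulators did not pass the test. Runx1, required for blood stem cells to form, had means of 81.9 ± 4.41 CPM in HSC and 51.1 ± 12.6 CPM in LMPP (edgeR adjusted p = 0.3). Erg had means of 13.9 ± 1.56 and 10.6 ± 5.09 CPM, and Hoxa9 129 ± 21.8 and 149 ± 51 CPM. The list's count of 13 went to 6 without HSC library 2, 7 without HSC library 1 and 8 without LMPP library 2.

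Of 24 surface and signalling genes of stem cells tested, 18 fell, Slamf1 of the gate among them, and 1 rose, with a median of -2.08, or -1.92 with genes at 0 in LMPP set at their bound. Procr, the endothelial protein C receptor, was at 71.7 and 99.9 CPM in HSC and 8.44, 2.88 and 3.31 CPM in LMPP. It fell by 4.12 ± 0.48 (edgeR adjusted p = 0.00071). Mllt3, a chromatin reader tied to stem cell maintenance, was at 157 and 199 CPM against 17.5, 14.3 and 11.7 CPM, with a fall of 3.61 ± 0.28 (edgeR adjusted p = 9.4e-05). Esam, an adhesion molecule of HSC and endothelium, was at 244 and 277 CPM against 13, 2.88 and 11 CPM. Pdzk1ip1, a small membrane protein, was at 90 and 114 CPM against 2.06, 0 and 1.57 CPM. Trpc6, a calcium channel, was at 85.6 and 90.9 CPM against 0, 0 and 1.36 CPM. In each of these genes both HSC libraries lay well above every LMPP library. Cdkn1c, an imprinted inhibitor of the cell cycle, was at 110 and 129 CPM against 43.5, 18.8 and 32.3 CPM, a call lost without HSC library 2 (adjusted p = 0.051). The one gene of the list that rose was Cd34, a sialomucin, from 487 and 455 CPM to 1534, 1256 and 1171 CPM (1.49 ± 0.19, edgeR adjusted p = 0.00091). Without HSC library 2 the list's count of 18 was 11.

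Nkx2-3 and Procr are shown together because both transcripts fell while their start sites went opposite ways in the lists (RefSeq, GRCm38.p6). Of the fetal lists, the window before Nkx2-3 (chr19:43612075-43612324, + strand) overlapped a region of the HSC list only. That before Procr (chr2:155750967-155751216, + strand) overlapped a region of the LMPP list only. The Nkx2-3 region was also in both adult lists, and the Procr region was in neither.
Nkx2-3: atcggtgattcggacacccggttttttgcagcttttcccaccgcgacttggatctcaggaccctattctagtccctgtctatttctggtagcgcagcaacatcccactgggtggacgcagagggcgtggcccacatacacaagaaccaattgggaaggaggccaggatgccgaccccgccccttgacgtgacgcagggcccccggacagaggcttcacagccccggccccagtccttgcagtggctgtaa
Procr: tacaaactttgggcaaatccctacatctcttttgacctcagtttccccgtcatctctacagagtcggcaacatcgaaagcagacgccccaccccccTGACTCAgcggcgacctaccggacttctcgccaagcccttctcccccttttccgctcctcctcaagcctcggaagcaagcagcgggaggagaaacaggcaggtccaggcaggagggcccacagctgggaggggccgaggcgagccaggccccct
The Procr window held an AP-1 match, TGACTCA, from 154 to 148 bases before the start, a motif of 4.26% of all promoters of that length. None of the 9 motifs was found in the Nkx2-3 window.

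Genes shared by HSC and endothelium also fell: 11 of 21 tested were lower and 1 was higher. Tie1 and Tek, the receptor tyrosine kinases of the angiopoietin system, were at 188 and 203 CPM and at 153 and 164 CPM in HSC. In LMPP, Tie1 had a mean of 16 ± 6.67 CPM (SD, n = 3) and Tek was at 7.83, 6.69 and 18.1 CPM. Their ligand gene Angpt1 fell by 1.93 ± 0.23 (edgeR adjusted p = 0.00071), from 318 and 356 CPM to 106, 71.1 and 88.8 CPM. Nrp1, a coreceptor of vascular growth factors, was the gene that rose, and its call was lost without HSC library 2 or LMPP library 3 (adjusted p = 0.15 and 0.082). Without HSC library 1 or 2 the list held 7 and 5 that fell, and without LMPP library 2 it held 7. The 8 markers fixed for endothelial cells themselves summed to 83.7 and 92.5 CPM in HSC and 29.1, 14.1 and 26.3 CPM in LMPP, with 3 of 7 tested lower. None of the 8 was at 0 in all fetal libraries, and their part in this group's fall was not tested. In sorted bulk cells, fewer cells that express a gene and less RNA per cell cannot be told apart.

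Megakaryocyte and platelet genes, the lineage named in the study's title, fell in fetal LMPP in 17 of 31 tested and rose in 0, with a median of -1.87. At an unadjusted p under 0.05 in edgeR 0 were higher, and by DESeq2 0. Vwf, the platelet and endothelial adhesion protein that marks platelet-biased HSC, was at 63.8 and 79.2 CPM in HSC and 2.33, 1.44 and 0.765 CPM in LMPP, a fall of 5.52 ± 0.69 (edgeR adjusted p = 0.00088). Itga2b, the platelet integrin CD41, was at 96.8 and 49.6 CPM against 6.61, 1.37 and 2.55 CPM (-4.34 ± 0.73, edgeR adjusted p = 0.0039). Selp, the adhesion receptor P-selectin, fell by 3.34 ± 0.51 (edgeR adjusted p = 0.0025). The HSC libraries differed from each other in several of these genes, with HSC library 1 the higher for Itga2b, Gp5 (25 and 12 CPM) and Thbs1 (16.8 and 2.46 CPM), whose call was lost without it (adjusted p = 0.07). Pf4, a platelet chemokine, was at 26.3 and 9.26 CPM in HSC and 19.5, 8.13 and 3.06 CPM in LMPP. The groups overlapped and the test was not passed (edgeR adjusted p = 0.5). Ppbp, its neighbour and also a platelet chemokine, was at 1.22 and 2.24 CPM against 15.4, 4.29 and 1.49 CPM (edgeR adjusted p = 0.16). The markers fixed for megakaryocytes summed to 114 and 73.3 CPM in HSC and 37.4, 16 and 14.7 CPM in LMPP, with Gp6 at 0 throughout, and their part in the falls was not tested. Without HSC library 1 the list's count was 11.

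The 250 bases before the Itga2b start are shown because, of the fetal lists, the region was in that of HSC only, as its transcript was HSC-high (RefSeq, GRCm38.p6, chr11:102469884-102470133, - strand). The same region was also in both adult lists.
Itga2b: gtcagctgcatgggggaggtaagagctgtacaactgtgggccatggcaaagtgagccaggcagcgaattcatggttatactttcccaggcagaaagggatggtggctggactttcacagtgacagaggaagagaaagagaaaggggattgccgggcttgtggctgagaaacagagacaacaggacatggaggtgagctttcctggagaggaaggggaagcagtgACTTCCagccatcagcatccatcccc
The single match was of the ETS motif, read as ACTTCC from 26 to 21 bases before the start. That motif was present in 23.8% of all promoters of this length.

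Erythroid genes were lower in 11 of 27 tested and higher in 0 (1 at an unadjusted p under 0.05 in edgeR, 0 by DESeq2), with a median of -2.78, or -2.68 with genes at 0 set at their bound. Gata1, the master regulator of erythroid and megakaryocyte cells, was at 63.2 and 36.2 CPM in HSC and 4.49, 2.66 and 2.17 CPM in LMPP, a fall of 3.98 ± 0.45 (edgeR adjusted p = 0.00061). Epor, the erythropoietin receptor, was at 46.8 and 47.1 CPM against 3.09, 0.517 and 1.19 CPM (-4.83 ± 0.66, edgeR adjusted p = 0.0013). Epb42, a red cell membrane skeleton protein, was at 1.77 and 3.41 CPM against 0 in every LMPP library. The globin gene Hbb-bt was at 587 and 679 CPM against 211, 72.3 and 100 CPM, and its near-identical neighbour Hbb-bs shares reads with it, so the split between them is uncertain; Hbb-bs lost its call without either HSC library (adjusted p = 0.053 and 0.073). Hba-a1, an alpha globin gene, was at 8.65 and 16.8 CPM in HSC and 54.7, 12.2 and 8.58 CPM in LMPP, with overlapping groups. Erythroblast markers, which include both kinds of globin, summed to 1720 and 1931 CPM in HSC and 1041, 323 and 508 CPM in LMPP, and 5 of 10 tested were lower. Their part in these falls was not tested. The list's count was 6 without HSC library 1 and 7 without HSC library 2, and 17 without the 3 libraries that stood apart.

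**Figure D2:**
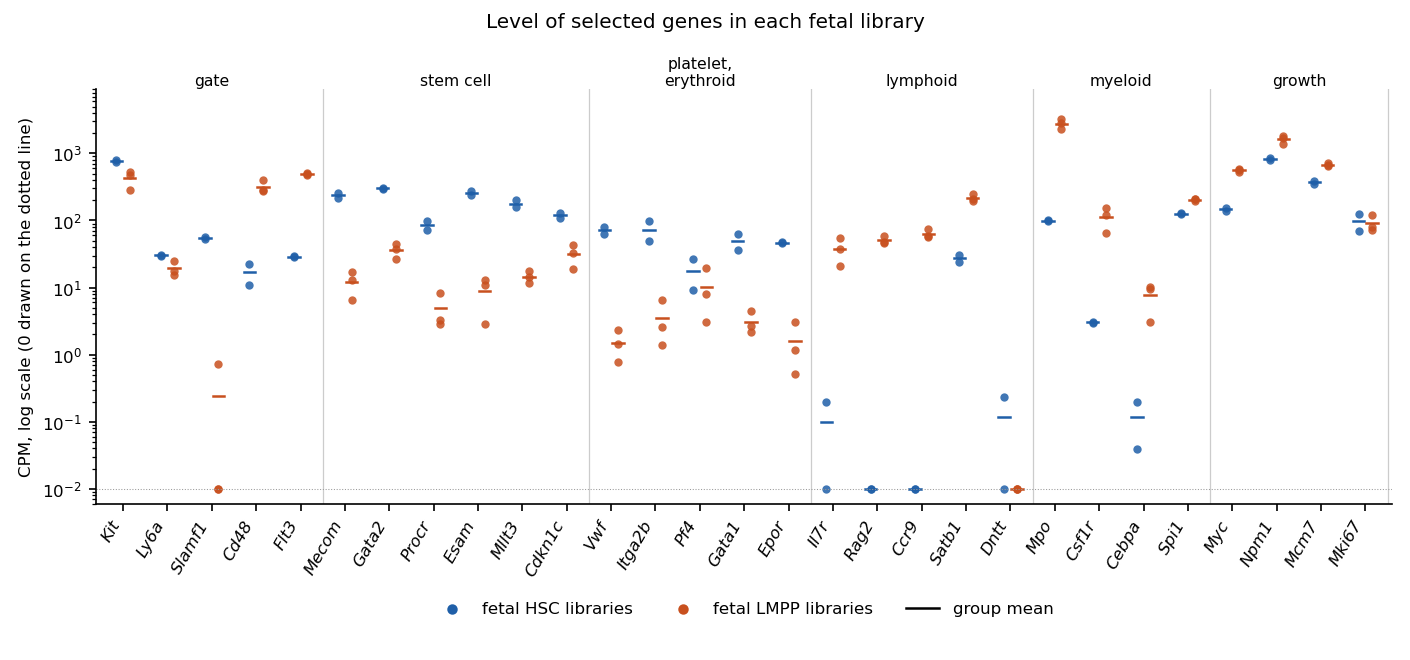
Level of selected genes in each fetal library, in CPM on a log scale, with HSC libraries in blue, LMPP libraries in orange, bars at the group means and zeros on the dotted line. Slamf1, Mecom, Vwf and Epor are high in HSC, while Rag2 and Ccr9 are at 0 in both HSC libraries and between 46.6 and 75.4 CPM in LMPP; Pf4 and Mki67 overlap.

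Of 38 genes of early lymphoid cells tested, 17 rose, Flt3 of the gate among them, and 3 fell, with a median difference of 1.57. The share that fell, 7.89%, was near the 9.85% of all genes tested. Rag2, a subunit of the recombinase that cuts antigen receptor genes, was at 0 in both HSC libraries and at 46.6, 59.1 and 47.7 CPM in the LMPP libraries. Against a floor of 3 counts per HSC library, Rag2 was at least 535-fold higher (edgeR adjusted p = 0.00071). Its partner Rag1 was at 0.0393 and 0.0488 CPM in HSC and 1.1, 2.92 and 5.18 CPM in LMPP, a rise of 5.99 ± 0.99 (edgeR adjusted p = 0.0035). Ccr9, a chemokine receptor of thymus-seeding progenitors (chr9:123767211-123783457 in mm10), was at 0 and 0 CPM against 55.8, 59.3 and 75.4 CPM, at least 664-fold higher. Ccr7, a second receptor for thymic homing, was at 0.0393 and 0 CPM against 19.9, 21.2 and 21.9 CPM. Il7r, the interleukin-7 receptor subunit, was at 0 and 0.195 CPM against 21.1, 54.8 and 37.1 CPM. For all 5 genes every LMPP library lay above both HSC libraries. Rag1 lost its call without HSC library 2 (adjusted p = 0.051).

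Satb1, a chromatin organiser of lymphoid commitment, was at 24 and 30.5 CPM in HSC and 198, 246 and 211 CPM in LMPP (3.00 ± 0.36, edgeR adjusted p = 0.0008). Ebf1, an early B cell factor, was at 0 and 0.268 CPM against 5.88, 8.35 and 7.22 CPM. Cd7, a lymphoid surface protein, was at 0 in HSC and at 1.19, 3.4 and 5.57 CPM in LMPP. The 3 members that fell were Ikzf2, a zinc finger factor (48.5 and 59 against 8.74, 6.98 and 14.8 CPM), Ltb, a cytokine of the tumour necrosis factor family (155 and 221 against 43.8, 23.9 and 37.3 CPM), and Gata3, a T cell factor (17.6 and 20.7 against 5.58, 7.09 and 8.16 CPM). Notch1 had means of 16.2 ± 1.96 CPM in HSC (SD, n = 2) and 53.5 ± 26.3 CPM in LMPP (SD, n = 3), where library 1 was at 23.6 CPM, and did not pass the test (edgeR adjusted p = 0.16, or 0.022 with the adult block). Dntt, the template-independent polymerase of antigen receptor joining, was at 0.236 and 0 CPM in HSC and at 0 in all 3 fetal LMPP libraries, where a count of 0 allows up to 0.0533, 0.111 and 0.127 CPM. The adult LMPP libraries held 1167, 1182 and 1694 CPM of it. Markers fixed for B cells summed to 50.6 and 66.9 CPM in HSC and 86, 75.5 and 101 CPM in LMPP, with Ms4a1 at 0 in all, and those for T and NK cells to 36.1 and 36.1 against 124, 94.6 and 115 CPM, with Cd3e, Ncr1 and Cd8a at 0 in all. Gata3 lost its call without HSC library 2 (adjusted p = 0.087), and without either HSC library the count of 17 was 10.

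The Rag1 window is shown because, of the fetal lists, it was open in that of LMPP only and held matches of 4 motifs (RefSeq, GRCm38.p6, chr2:101649533-101649782, - strand). Its region was also in both adult lists.
Rag1: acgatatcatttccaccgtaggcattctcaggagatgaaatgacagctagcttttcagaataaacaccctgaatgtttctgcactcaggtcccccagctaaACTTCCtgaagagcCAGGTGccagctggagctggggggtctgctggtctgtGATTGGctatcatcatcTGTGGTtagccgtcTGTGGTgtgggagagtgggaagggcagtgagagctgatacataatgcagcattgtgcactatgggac
Counted back from the start, the ETS match lay at 149 to 144, the E protein match at 135 to 130, the NF-Y match at 98 to 93 and the RUNX matches at 81 to 76 and 67 to 62. The RUNX motif was in 16.8% of the 376 promoters of genes that rose at least 2-fold and 9.9% of the 899 of genes that fell at least 2-fold. The ETS motif was in 26.9% and 17.2% of the same promoters, the E protein motif in 15.2% and 16% and the NF-Y motif in 18.9% and 17%. Over all 11227 promoters the shares were 11% (RUNX), 23.8% (ETS), 15.5% (E protein) and 19.6% (NF-Y). The RUNX motif was in 12.8% of the 929 promoters of all higher genes. It was in 15.3% of the 1888 promoters with a peak in neither fetal list. Median GC content was 56% for genes that rose at least 2-fold and 59.2% for those that fell at least 2-fold. It was 59.6% over all promoters and 52.8% for those with a peak in neither list. The part of GC content in these shares was not tested. A match of letters is a description and shows no binding.

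Granulocyte and monocyte genes rose in 15 of 40 tested and fell in 3, with a median of 1.28. The share that fell, 7.5%, was near the 9.85% of all genes tested. Mpo, the myeloperoxidase of granule precursors, was at 101 and 97.6 CPM in HSC and 2856, 3222 and 2297 CPM in LMPP, a difference of 4.81 ± 1.27 (edgeR adjusted p = 0.026). The groups were far apart, but the Mpo call was lost without HSC library 1 or 2 (adjusted p = 0.15 and 0.19) and without LMPP library 2 (0.057). Cst7, a cysteine protease inhibitor of leukocytes, was at 0.0393 and 0 CPM against 32.8, 40.8 and 30.4 CPM (10.84 ± 0.60, edgeR adjusted p = 4.5e-05). Cebpa, the factor that starts granulocyte differentiation, was at 0.0393 and 0.195 CPM against 3.09, 10.3 and 9.52 CPM, and Csf1r, the macrophage growth factor receptor, at 2.99 and 3.1 CPM against 66.1, 122 and 153 CPM. LMPP library 1 was the lowest of its group for Cebpa, Csf1r, Irf8 (64.4, 186 and 146 CPM) and Ccr2 (7.71, 33.6 and 45.6 CPM). Cebpa lost its call without HSC library 1 (adjusted p = 0.056) and Csf1r without either HSC library (0.052 and 0.064). Irf8 and Ccr2 lost theirs without either HSC library and without LMPP library 2, and Ccr2 also without LMPP library 3.

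The myeloid members that fell were Gfi1, a repressor shared by HSC and granulocyte precursors, from 100 and 128 to 45, 27.2 and 26.7 CPM, Lyz2, a lysozyme, from 312 and 358 to 177, 99 and 168 CPM, and Ms4a3, a granulocyte progenitor gene. Gfi1 kept its call with any fetal library left out, Lyz2 lost it without HSC library 1 or 2 or LMPP library 2, and Ms4a3 without any of those or LMPP library 3. Spi1, the myeloid and lymphoid factor PU.1, was at 123 and 129 CPM against 211, 192 and 212 CPM, which did not overlap but missed the threshold (edgeR adjusted p = 0.072, or 0.0025 with the adult block). Ctsg, a protease of later granulocyte precursors, was at 0 and 0.878 CPM against 11, 15 and 8.24 CPM (edgeR adjusted p = 0.058), and Elane, another, had means of 1.12 ± 1.59 and 1.65 ± 0.854 CPM. Macrophage markers summed to 23.4 and 28.4 CPM in HSC and 77.4, 135 and 173 CPM in LMPP, with Vsig4 at 0. Of 9 tested, Csf1r was the only one called and the only one with a positive difference. The median difference of the 9 was -1.38, and 4 were lower in LMPP without overlap of the libraries, as were 33.3% of all genes. Neutrophil markers summed to 3.66 and 8.65 CPM against 29.3, 6.84 and 8.71 CPM, with Ly6g at 0, and of 7 tested edgeR called 0 (also 0 at unadjusted p under 0.05) and DESeq2 0. Dendritic cell markers, a list that holds Flt3 and Ccr9, summed to 80.4 and 76.7 against 602, 648 and 673 CPM. The part of such cells in the rises was not tested. The list's count of 15 was 6 without HSC library 1, 7 without HSC library 2 and 10 without LMPP library 2.

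Receptors for cytokines were split, with 9 higher and 8 lower of 38 tested and a median of -0.10. Besides Flt3, which is a gate gene, Il7r and Csf1r, the higher ones included Il10rb (22.5 and 29.6 against 103, 87.7 and 77.4 CPM), Ifnar2, a chain of the type I interferon receptor (75.6 and 86.5 against 151, 176 and 172 CPM), and Il1r1. The lower ones included Epor, Il27ra (28.4 and 31.6 against 12.9, 11.2 and 10.5 CPM) and Il11ra1. Csf3r, the granulocyte colony-stimulating factor receptor, had means of 105 ± 5.32 and 104 ± 7.4 CPM. Among homing and chemokine receptors, 8 of 30 rose and 4 fell (13.3%, against 9.85% of all genes tested). Itgal, an integrin chain of leukocytes, went from 18.6 and 20.8 to 47.7, 96.5 and 128 CPM, and Itgb7, an integrin chain of gut and thymus homing, from 8.3 and 14.1 to 26.1, 41.5 and 42.3 CPM. Jam3 and S1pr1, an adhesion molecule and a lipid receptor for egress, were among those that fell. Cxcr4, the receptor for stromal CXCL12, had means of 4.97 ± 1.08 and 8.84 ± 0.949 CPM (edgeR adjusted p = 0.12). Il1r1, Il11ra1, Itgal, Itgb7, Jam3 and S1pr1 each lost the call without at least 1 of the HSC libraries, Il1r1, Il11ra1 and S1pr1 also without LMPP library 2, and Il1r1 and S1pr1 without LMPP library 3. Without HSC library 1, the homing list held 2 called higher and the cytokine receptor list 5 higher and 3 lower. Without HSC library 2 they held 3 higher and 1 lower, and 4 higher and 3 lower, and without LMPP library 2 the lower cytokine receptors were 3. Without the 3 libraries that stood apart, 8 homing genes were lower.

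**Figure D3:**
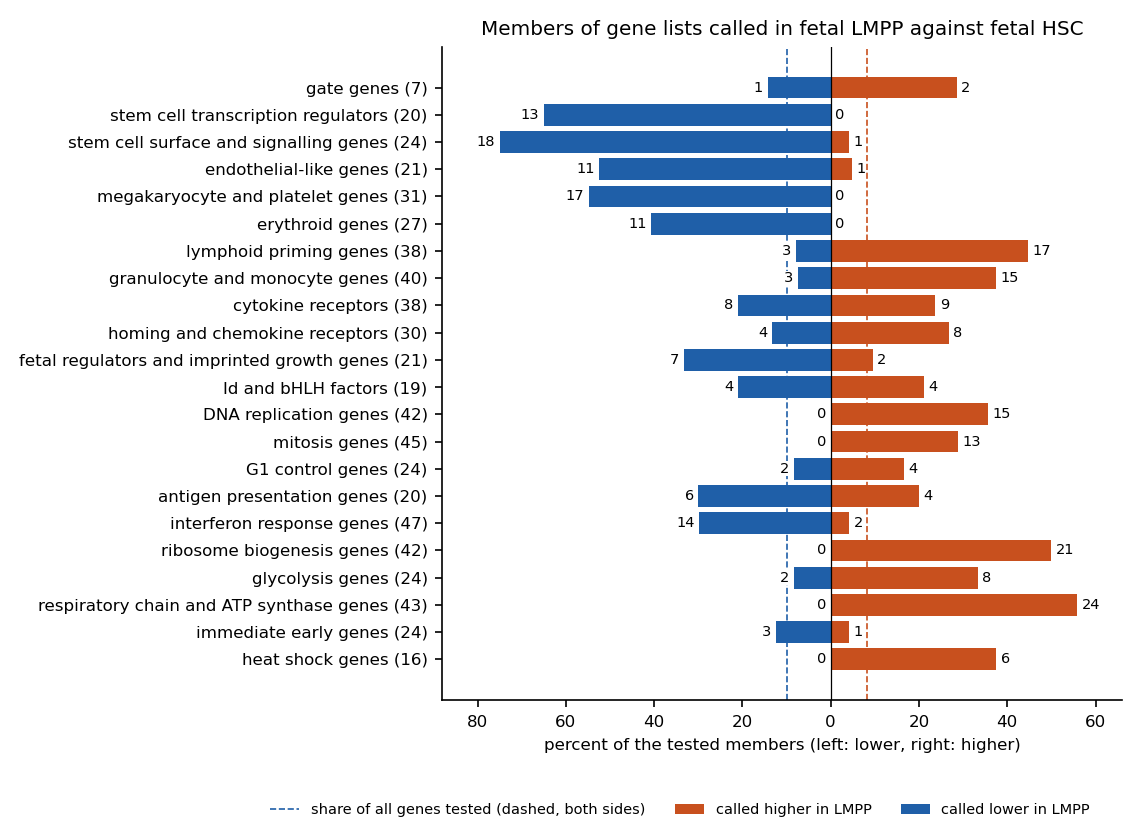
Percent of tested members of each gene list called higher (orange, right) or lower (blue, left) in fetal LMPP, with the number called at the bar ends and the number tested in brackets. Dashed lines are the 8.21% and 9.85% of all genes called higher and lower; stem cell, platelet and erythroid lists extend left, and ribosome and respiratory chain lists right.

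Among growth and biosynthesis genes, Myc, the growth regulator of the basic helix-loop-helix family, was at 154 and 139 CPM in HSC and 564, 582 and 529 CPM in LMPP, a rise of 1.93 ± 0.17 (edgeR adjusted p = 0.0002). Its relative Mycl was at 0 in HSC and 2.33, 4.91 and 6.16 CPM in LMPP, while Mycn was lower, at 500 and 533 CPM against 358, 193 and 270 CPM (-0.92 ± 0.22, edgeR adjusted p = 0.02, lost without either HSC library at 0.084 and 0.14 and without LMPP library 3 at 0.053). The list of Id and basic helix-loop-helix factors held 4 that rose and 4 that fell of 19. Its falls were 2 without HSC library 1 or LMPP library 3 and 0 without HSC library 2, and its rises 2 without HSC library 1. Of 42 ribosome biogenesis genes tested, 21 rose and 0 fell, with a median of 0.71; 0 were lower at an unadjusted p under 0.05 in edgeR and 0 by DESeq2. Npm1 and Ncl, nucleolar proteins of ribosome assembly, went from 851 and 806 to 1839, 1689 and 1366 CPM and from 1090 and 984 to 1840, 2048 and 1818 CPM. Mrto4, a ribosome assembly factor, went from 60.1 and 58.8 to 141, 131 and 123 CPM (1.15 ± 0.18, edgeR adjusted p = 0.0031).

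Of 43 respiratory chain and ATP synthase genes, 24 rose and 0 fell, with a median of 0.68, and again 0 were lower at an unadjusted p under 0.05 in edgeR or by DESeq2. Atp5g3, a subunit of the ATP synthase ring, was at 293 and 256 CPM in HSC and 548, 523 and 492 CPM in LMPP (0.93 ± 0.14, edgeR adjusted p = 0.0022), and Cox5a, a subunit of cytochrome oxidase, at 178 and 131 against 337, 335 and 306 CPM. Glycolysis genes rose in 8 of 24 (33.3%) and fell in 2 (8.33%, near the 9.85% of all genes tested). Pgam1, phosphoglycerate mutase, was at 331 and 305 against 895, 809 and 771 CPM (1.38 ± 0.16, edgeR adjusted p = 0.00072), and Ldha, lactate dehydrogenase, at 1704 and 1621 against 2909, 2753 and 2542 CPM. The 2 that fell were hexokinases, Hk1 (283 and 290 against 124, 136 and 167 CPM) and Hk3. Hk1 lost its call without any 1 of the 5 fetal libraries, and Hk3 without either HSC library or LMPP library 3. Heat shock genes rose in 6 of 16 and fell in 0 (4 at an unadjusted p under 0.05 in edgeR, 1 by DESeq2), among them Hspd1, the mitochondrial chaperone, from 660 and 574 to 1417, 1479 and 1196 CPM. Several of these genes have processed pseudogenes that can share reads, so their counts carry that uncertainty. In simulated data 14% of 2-fold changes and 86% of 4-fold changes were called. The changed genes, 50 per fold, were drawn from genes above 5 CPM among the 14720. Recovery was not measured at the levels of the genes in these lists. The simulated spread was that of the fit to all 11 RNA libraries. Npm1, Ncl and Cox5a lost their calls without HSC library 2 (adjusted p = 0.051, 0.065 and 0.07). Without HSC library 2, the called higher members were 2 for ribosome biogenesis, 1 for respiratory chain, 3 for glycolysis and 1 for heat shock. Without HSC library 1 they were 11, 2, 3 and 3, and without LMPP library 1 the respiratory chain list held 8 and glycolysis 4. Without LMPP library 2 the ribosome, respiratory chain and glycolysis lists held 12, 6 and 4. Other alternatives gave more calls: the ribosome and respiratory chain counts were 34 and 41 in the 5 fetal libraries alone, 36 and 40 without the 3 libraries that stood apart and 33 and 42 with the adult block.

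Part of the cell cycle lists rose. In the DNA replication list 15 of 42 were higher and 0 lower, with a median of 0.57, and in the mitosis list 13 of 45 and 0, with a median of 0.72. At an unadjusted p under 0.05 in edgeR 1 replication gene and 0 mitosis genes were lower, and 0 of either by DESeq2. Mcm7, a subunit of the replicative helicase, was at 391 and 354 CPM in HSC and 717, 668 and 643 CPM in LMPP (0.86 ± 0.13, edgeR adjusted p = 0.0026). Rrm2, the ribonucleotide reductase subunit made in S phase, was at 237 and 175 against 621, 553 and 458 CPM. Kif23, a cytokinesis motor, was at 90.5 and 71.9 against 158, 178 and 140 CPM. Mki67, a marker of cycling cells, was at 124 and 69.4 CPM in HSC and 73.4, 121 and 80.5 CPM in LMPP, with overlapping groups (edgeR adjusted p = 0.89). G1 regulators rose in 4 of 24 (Cdk4, Cdk6, Ccnd1 and Cdkn1a) and fell in 2 (Cdkn1c and Gas1). These were 16.7% and 8.33% of the list, against 8.21% and 9.85% of all genes tested. Rrm2 and Kif23 lost their calls without HSC library 2, as did Cdk4, Cdk6 and Ccnd1 without either HSC library. Cdkn1a lost it without HSC library 1, Cdkn1c without HSC library 2 and Gas1 without any 1 fetal library. Cdk6 and Ccnd1 also lost theirs without LMPP library 2 or 3. The higher counts were 3 for replication and 5 for mitosis without HSC library 1, and 1 and 0 without HSC library 2. Without LMPP library 1 or 2, the mitosis count was 5 and 6, and the replication count was 9 without LMPP library 2. In the other direction, the 5 fetal libraries alone gave 28 replication and 29 mitosis genes, leaving out the 3 libraries that stood apart 28 and 26, the adult block 28 and 32, and DESeq2 18 and 23.

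Interferon response genes were lower in 14 of 47 tested and higher in 2, with a median of -0.59. Rsad2 and Ifi44, antiviral genes of type I interferon, were at 27.5 and 22.5 against 6.18, 6.87 and 2.63 CPM and at 15.3 and 12.8 against 1.69, 3.03 and 0.552 CPM. Rsad2 fell by 2.25 ± 0.37 (edgeR adjusted p = 0.0035). Antigen presentation genes went both ways. The class I genes H2-K1 (429 and 483 against 214, 154 and 173 CPM) and H2-D1 fell, and the class II genes H2-Ab1 and H2-DMa (14.2 and 17.5 against 57.4, 53.1 and 67.7 CPM) and the invariant chain Cd74 rose. H2 genes are near-identical to one another and their counts are uncertain. In all, 4 of 20 rose and 6 fell. H2-D1, H2-Ab1 and Cd74 lost their calls without either HSC library, H2-D1 also without LMPP library 2 or 3, and Cd74 without LMPP library 1 or 3. Immediate early genes, which respond to cell handling, rose in 1 of 24 (4.17%) and fell in 3 (12.5%). These shares were near the 8.21% and 9.85% of all genes tested. Dusp1, a phosphatase, was among those that fell (78.2 and 97.8 against 22.7, 25.3 and 36.4 CPM). The interferon count was 5 without HSC library 1 and 4 without HSC library 2, and 8 and 9 without LMPP library 2 and 3. It was 22 by DESeq2, 30 without the 3 libraries that stood apart, 25 with a term for them and 24 with the adult block.

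The imprinted growth genes H19, Igf2 and Meg3 were lower in LMPP. The list of fetal regulators and imprinted genes held 7 that fell and 2 that rose of 21 tested. The share that rose, 9.52%, was near the 8.21% of all genes tested. H19, an imprinted long noncoding RNA, was at 63.9 and 82.7 CPM against 8.63, 7.98 and 7.99 CPM, and Igf2, the growth factor gene beside it, at 30.5 and 40.2 against 1.99, 1.22 and 1.44 CPM. Meg3, a maternally expressed noncoding RNA, was at 24.6 and 24.9 against 0.835, 0.296 and 1.27 CPM (-4.95 ± 0.60, edgeR adjusted p = 0.00079). The group's fetal regulators differed from these: Lin28b, which blocks let-7 maturation, was at 29.5 and 21 CPM in HSC and 27.7, 47.6 and 35.2 CPM in LMPP (edgeR adjusted p = 0.55), and Hmga2, a chromatin protein it sustains, at 109 and 131 against 135, 276 and 206 CPM (0.23). Igf2bp3, an RNA-binding protein of fetal HSC, rose from 81.2 and 79.5 to 214, 200 and 197 CPM. The library preparation did not keep strand, so reads of overlapping antisense transcripts are counted together. Igf2bp3 lost its call without either HSC library and without LMPP library 2. Without HSC library 2 the list held 3 that fell and 0 that rose.

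The largest differences over all genes were mostly in genes at 0 in 1 cell type. Among the 12 largest rises, besides Ccr9, Rag2, Cst7 and Ccr7, were Gfra1, a coreceptor of glial growth factors (0 and 0 against 7, 17.2 and 20.7 CPM, at least 157-fold higher), Btla, an inhibitory lymphocyte receptor (at least 115-fold), Arpp21, a thymocyte RNA-binding protein (at least 84.5-fold), Clec5a, a myeloid lectin (at least 78.3-fold), Tmem156 (at least 69.7-fold), Atp8b4 and Ctnnd2. Stc1, a secreted glycoprotein, was at 0 and 0.0488 CPM in HSC and 34.6, 25 and 27.7 CPM in LMPP, and at 0 in all 6 adult libraries. The 12 largest falls included S100a16, a calcium-binding protein (16.7 and 21.6 CPM against 0, at least 197-fold lower), Lhcgr, the luteinizing hormone receptor (11.1 and 9.29 CPM against 0, at least 105-fold lower), Kcnj5, a potassium channel (at least 103-fold lower), Ces2g, a carboxylesterase (at least 67.3-fold lower), and Cyp26b1, which degrades retinoic acid (at least 66.8-fold lower). Shroom3, Isl1 and Olfr632 were at 0 in LMPP as well. Ptprb, a phosphatase of endothelium, and Dach1, a nuclear cofactor, were near 0 there: Dach1 was at 19.6 and 19.7 CPM against 0.0178, 0 and 0.212 CPM. For these genes the bound is set by the depth of the libraries. Clec5a and Ptprb lost their calls without HSC library 2 (adjusted p = 0.067 and 0.064).

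The same difference between LMPP and HSC was measured in adult marrow, with no shared library, to see where the fetal difference was its own. There 1143 genes (7.76%) were higher and 1373 (9.33%) lower, or 1885 and 1959 with the adult block. Of the fetal calls, 565 higher genes (46.8% of the fetal and 49.4% of the adult ones; 3.84% of all genes) and 746 lower genes (51.4% and 54.3%; 5.07%) were called in the same direction in adults, and 17 (0.115%) in opposite directions. Across the 14720 genes the log2 differences at the ages had a Pearson correlation of 0.604, given as a description over genes. The difference of the differences was called for 137 genes, 57 (0.387%) more positive and 80 (0.543%) more negative in fetal liver. DESeq2 called 304 and 363. With a block for replicate number the edgeR counts were 41 and 45 over all libraries, and 221 and 243 with the block in the adult libraries only. Without a block they were 14 and 31 without fetal HSC library 1 and 8 and 24 without fetal HSC library 2. The negative count was 48 without fetal LMPP library 2 and 52 without fetal LMPP library 3.

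The platelet list held the most genes called in that test, 8 of 31. Pf4 was at 536, 155 and 161 CPM in adult HSC and 0.91, 1.34 and 0.851 CPM in adult LMPP (interaction 7.30 ± 1.19, edgeR adjusted p = 0.019). The lymphoid genes Flt3 and Satb1 rose less in fetal liver, by -2.11 and -2.96 (edgeR adjusted p = 0.007 and 0.014). Flt3 was a gate gene at both ages, so its value depends on the sorts and is no finding. Adult HSC held Satb1 at 4.88, 6.12 and 2.29 CPM, below both fetal HSC libraries, while adult LMPP, at 266, 318 and 234 CPM, overlapped fetal LMPP. Cd34 also rose less in fetal liver (interaction -1.35 ± 0.24, edgeR adjusted p = 0.027, or 0.061 with the block over all libraries). Of 27 named genes called in this test, 13 lost the call without fetal HSC library 1 and 16 without fetal HSC library 2, among them Pf4 and Cd34 in both cases and Satb1 in the second. Myc and Ldha lost it in both cases too. Myc rose more, by 1.39, and Ldha, which fell in adult LMPP from 1428, 1300 and 1438 to 1059, 1122 and 1108 CPM, rose in fetal LMPP.

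Biosynthesis lists had other medians in adults: 0.09 for ribosome biogenesis, with 1 gene higher and 1 lower, and 0.33 for respiratory chain genes, with 5 higher. In the test of the difference itself edgeR called 0 genes of either list. At an unadjusted p under 0.05, 19 of 42 ribosome biogenesis genes and 8 of 43 respiratory chain genes were more positive in fetal liver, and DESeq2 called 5 and 1. The mitosis list had 34 higher in adult LMPP with a median of 0.97, and 1 of its genes, Ect2, was called in that test; its fetal call was lost without fetal HSC library 2 (adjusted p = 0.15). Among the genes with the largest values, Slc16a11, a monocarboxylate transporter, was at 3.22 and 3.07 CPM in fetal HSC and 0.231, 0.222 and 0 CPM in fetal LMPP, and went the other way in adults, from 0.571, 1.11 and 0.349 to 63.4, 62.8 and 80.5 CPM.

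**Figure D4:**
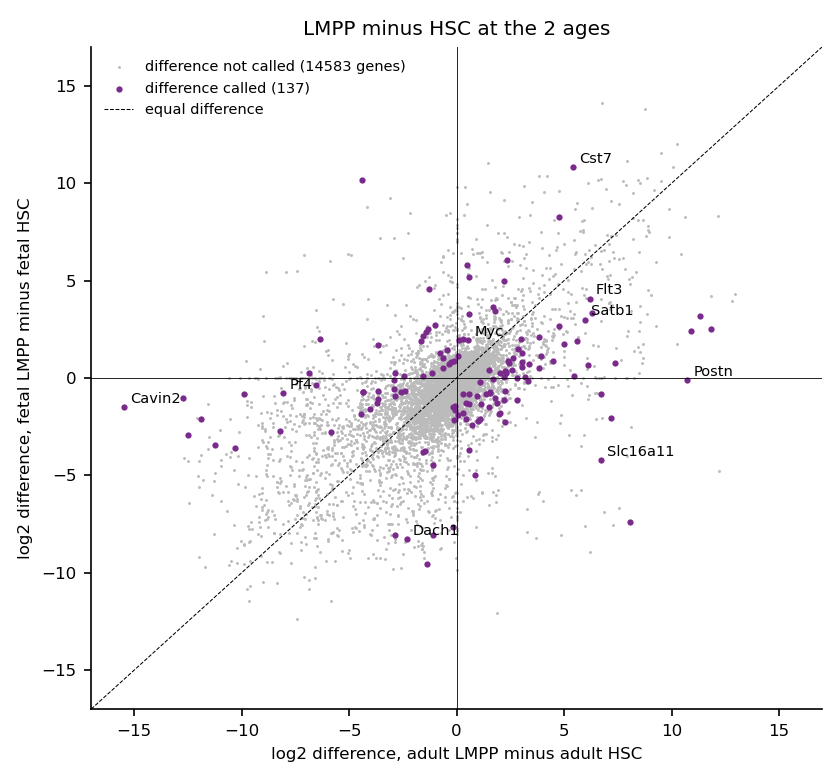
Log2 difference of LMPP minus HSC in adult marrow (horizontal) and fetal liver (vertical), 1 point per gene, with the 137 genes whose differences were called different in purple and the line of equal difference dashed. Slc16a11, low in fetal LMPP and high in adult LMPP, lies in the lower right quadrant, and Cst7 lies above the line.

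Open regions were compared by overlap of the deposited lists, 1 per cell type. The fetal HSC list held 48286 distinct regions and the fetal LMPP list 37156, so a region missing from the shorter list is not shown to be closed. Of the HSC regions 60.7% overlapped an LMPP region by at least 1 base, and of the LMPP regions 79% overlapped an HSC region. The 18997 regions of the HSC list alone lay within 1 kb of a gene start in 10.2% of cases and the 7801 of the LMPP list alone in 6.99%, against 37.8% of the HSC regions in both lists. Regions of 1 fetal list were more often in the adult list of the same cell type than in the other. Of the HSC-only regions 55.1% were in the adult HSC list and 37.3% in the adult LMPP list. Of the LMPP-only regions 32.3% were in the adult HSC list and 62.8% in the adult LMPP list. These shares were below those of the whole lists, 74.8% and 68.6% of all fetal HSC regions and 76% and 83.3% of all fetal LMPP regions. Of the HSC-only regions 36.4%, and of the LMPP-only regions 30.2%, were in no adult list. With 1 list per cell type these shares have no replicate check.

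Start sites of the genes followed the RNA in part. A peak in the HSC list only lay at the start of 14.9% of genes that fell at least 2-fold, 7.94% of those that rose at least 2-fold and 7.18% of all genes tested. A peak in the LMPP list only lay at 2.15%, 8.13% and 1.85% of them. Most genes that changed had no such difference at the start: among all genes called higher, 82.9% had a start peak in the HSC list and 82.1% in the LMPP list, and among those called lower 75.2% and 63.4%. Regions nearest to a gene within 100 kb followed the RNA in part as well. At least 1 HSC-only region was nearest to 51.4% of genes that rose at least 2-fold, 57.5% of those that fell at least 2-fold and 47% of all tested. For LMPP-only regions the shares were 46.4%, 26.6% and 26.6%. Vwf had 5 regions in the HSC list alone and none in the LMPP list alone. Of the 5, 1 lay at its start (chr6:125552662-125553322 in mm10). Ccr9 had 3 LMPP-only regions, at 4035, 10277 and 12650 bases from its start, and Rag2 had 3, the nearest at 2857 bases (chr2:101621626-101622086). Each also had 1 HSC-only region, at 29216 bases from the Ccr9 start and 98762 bases from the Rag2 start. Flt3, whose transcript rose, had 3 HSC-only regions and 0 LMPP-only regions, and Mecom, whose transcript fell, had start peaks in both lists.

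**Figure D5:**
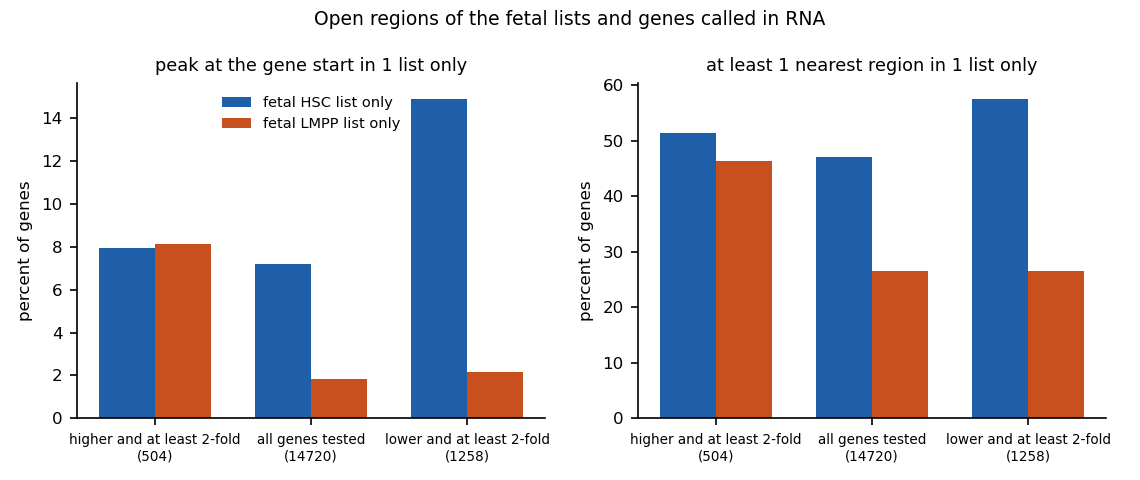
Percent of genes with a region in only 1 fetal list, for genes that rose at least 2-fold (504), all genes tested (14720) and genes that fell at least 2-fold (1258). At the start (left) HSC-only peaks are at 14.9% of the fallen genes and LMPP-only peaks at 8.13% of the risen ones; the right panel counts genes with at least 1 such region nearest to them within 100 kb.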

How the data were processed

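RNA of sorted cells was amplified with SMART-Seq v4 and made into Nextera XT libraries, per the labels' protocols, with no strand and no molecular identifiers. The authors deposited 1 matrix of unnormalized exon counts per gene, made with HOMER on mm10 per the file headers, and its values were treated as estimated counts. Of them 22.5% were not whole, and all were rounded here. The submitters' processing notes also name Trim Galore, STAR, RSEM, DESeq2, Bowtie2 2.3.5, Picard, SAMtools 1.9 and MACS2, without roles. Open regions were deposited as 1 peak list per cell type with the authors' score and signal value for each peak, which were used only to filter or describe peaks within a list. The sources used here do not say how replicates were merged.

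Counts of all 11 RNA libraries were fitted in edgeR 4.0.16 (limma 3.58.1, R 4.3.3) with TMM scaling, filterByExpr and a model of 4 group means, since all groups then share the estimate of spread. The 14720 genes that passed were tested by the quasi-likelihood test for fetal LMPP minus fetal HSC, the same difference in adults, and the difference between the ages. The common biological coefficient of variation was 0.372. Genes at 0 in a whole group were given bounds from 3 counts per library, which cover counting error only. Total counts were 19799398 to 64783926 per library. The fit was tested on simulated data: 3 unchanged genes were called. Replicate numbers did not pair the fetal libraries, whose deviations at the same number correlated at -0.016 and -0.061. Deviations of fetal LMPP library 1 correlated with those of adult HSC and LMPP libraries 3, at 0.289 and 0.278. With adult libraries 1 and 2 they correlated at -0.244 to -0.138. The cause was not tested. In the adult libraries every same-number pair correlated above 0.1 (0.153, 0.306 and 0.472). So did HSC library 1 with LMPP library 2 (0.216) and HSC library 2 with LMPP library 1 (0.128). Libraries 3 correlated with libraries 1 and 2 of the other cell type at -0.372 to -0.194. The values thus set libraries 3 apart and do not show that libraries 1 and 2 pair by number. A block there is given beside the results whose call or count it changes. Alternatives were DESeq2 1.42.0, other scaling and filters, a replicate block, the fetal libraries alone, each library left out, other peak overlaps and a stricter irreproducibility threshold.

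Genes were named by rule: the 12 largest rises and falls among called genes with at least 5 CPM in the higher group and no overlap, leaving out predicted and clone names; the 3 lowest p-values of each list; 26 fixed genes; and the 6 largest interactions in each direction. Some genes that the rule names are not reported here. Other list members were named after their values were seen. Members and lists were chosen with earlier results of these data known. Overlaps were computed with bedtools 2.31.1, and a region was assigned to the nearest gene start within 100 kb.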

Additional observations from a re-analysis of the deposited data

Results flagged for a closer look

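The difference between LMPP and HSC was itself different in fetal liver and adult marrow, by edgeR's interaction test, for 27 of the genes named here. Values are log2, fetal minus adult. The difference was more positive in fetal liver for Pf4 at 7.30 and Treml1 at 9.57, of the platelet list, and for Aqp1 at 3.04, a water channel of red cells. Other genes with a more positive fetal difference were Cavin2 at 13.95, Evc2 at 11.69, Pls1 at 9.79 and Zfp711 at 9.08, all at 0 in every adult LMPP library, so that these fitted values and that of Treml1 depend on the prior count. Cst7 was at 5.43, Myc at 1.39 and Ldha at 1.06. Ppbp stood at 8.37, Jam3 at 2.44 and Mycn at 1.93.

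A more negative fetal difference was found for the gate gene Flt3 at -2.11, which depends on the sorts, Satb1 at -2.96 and the mitosis gene Ect2 at -1.53. Icos at -8.11 and Cd6 at -8.51, receptors of T cells, Kmo at -9.30, an enzyme of tryptophan breakdown, and Postn at -10.83, a matrix protein, were at 0 in every adult HSC library, so that these values depend on the prior count too. Postn was at 19.3 and 27.7 CPM in fetal HSC and 24.3, 23.6 and 18.1 CPM in fetal LMPP. Slc16a11 stood at -10.91, Wfdc18 at -7.52 and Dach1 at -5.95. Gfi1 was at -3.81, Hk3 at -4.52, Ikzf2 at -3.11 and Cd34 at -1.35. With the replicate block over all libraries Aqp1, Cd34, Cd6, Dach1, Ect2, Jam3 and Ppbp lost the call (adjusted p = 0.05 to 0.076), and with the block in the adult libraries only, 0 of the 27 did.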

How the results depend on the processing

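Main counts were 1208 higher and 1450 lower fetal LMPP genes, and 57 more positive and 80 more negative interactions. With 1 fetal library left out they ran from 212 to 899, 386 to 1219, 8 to 55 and 24 to 85, and 22.3% (without HSC library 2) to 69.6% (without LMPP library 3) of the 2658 calls were kept. Of these calls, 2 had the other sign without HSC library 2, and 0 under each other alternative. The 5 fetal libraries alone gave 2103 higher and 1911 lower. DESeq2 gave 1736 and 2006, with 304 and 363 interactions. Without the 3 libraries that stood apart, chosen after seeing the data, 2579 and 2970 genes and 330 and 459 interactions were called, and with a term for them 2357 and 2425, and 396 and 460. The cause was not tested. With the replicate block the counts were 988 and 1116 genes and 41 and 45 interactions. Same-numbered libraries deviated together in adult marrow and not in fetal liver. Adult libraries 1 and 2 also deviated together across numbers. A block in the adult libraries only, added after seeing the data, gave 2367 and 2302 genes and 221 and 243 interactions. RLE scaling, no filter and a stricter filter kept each of these 4 counts within 1.5 times. Overlap of at least 50% of both regions lowered the shared shares to 54.9% of HSC and 71.4% of LMPP regions. At a stricter threshold (IDR 0.05) the LMPP share was 80.2%, and start peaks were at 80.5% (HSC list) and 78% (LMPP list) of higher genes and 71.9% and 57.7% of lower genes. A 250-base window gave 71.7% and 59.3% of lower genes. In data simulated with the spread of all 11 RNA libraries, 14% of 2-fold changes were recovered. In the deposited data, 504 of the 1208 higher genes reached 2-fold. The part of the number of HSC libraries in this was not tested.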

Other observations

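Sums are given here for markers of other cells that had no comparison in the report. The part of such cells in the differences was not tested. Hepatocyte markers summed to 63.7 and 148 CPM in HSC and 193, 89.9 and 141 CPM in LMPP, with 1 of 12 tested higher. Stromal markers summed to 4.99 and 7.09 against 16.2, 27.9 and 33.8 CPM, with 1 of 3 tested higher, 1 lower, and Dcn and Des at 0. Mast cell, basophil and eosinophil markers summed to 4.21 and 36.7 against 10.5, 4.88 and 9.35 CPM, with 1 of 9 tested lower and Mcpt4, Fcer1a, Gzmb and Tpsab1 at 0.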
